A study of Mus musculus with 3 samples.

Results

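The enzymes of sugar metabolism were examined in the chromatin of mouse regulatory T (Treg) cells. The mark profiled was H3K36me3 (histone H3 trimethylated at lysine 36), by ChIP-seq (sequencing of chromatin pulled down with an antibody), in splenic and large intestinal (LI) Treg cells. The set held 34 genes, chosen by name, that encode the enzymes of glycolysis, the pyruvate dehydrogenase step and the pentose phosphate pathway. A peak of the mark was given to a gene when its midpoint lay inside the gene body annotated in GENCODE M21. By this rule 33 of the 34 genes held 261 of the 120910 peaks of the deposited table, and Aldoc, a fructose-bisphosphate aldolase isozyme, held none. All 33 genes with a peak reached the minimum of 20 RPKM (read coverage scaled to peak length and to mapped reads) over both libraries and were compared, beside 9456 of all 21937 protein-coding genes.

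Both libraries came from CD3+CD4+Foxp3-YFP+ cells of adult, unchallenged C57BL/6 mice that carry Foxp3Cre-YFP, an allele in which the Foxp3 gene drives a Cre recombinase fused to a yellow fluorescent protein. The cells were sorted for this fluorescence and the pool of each tissue came from 7 females and 7 males. Each tissue had 1 library, so no difference below has a replicate check or a p-value. The LI library was 1.29 times as deep as that of spleen, as inferred from the steps of the values. An input library of splenic Treg cells was not analysed here. In pooled cells, fewer cells with the mark and less of the mark per cell cannot be told apart. The Treg genes Foxp3, Il2ra, Ctla4, Cd3e, Cd4 and Ikzf2 all held peaks, 6 of 6, with 1777 RPKM in sum in spleen and 1475 in LI. Most of this sum came from Ikzf2, with 1205 RPKM in spleen and 851 in LI. Foxp3 (132.5 and 156.3), Ctla4 (66.1 and 103.2) and Cd4 (73.9 and 83.2) had higher sums in LI. Il2ra (247.3 and 241.7) and Cd3e (51.8 and 40.1) had lower ones, so the list was split. Of 8 epithelial genes only Epcam, Vil1 and Cldn7 held peaks, with 37.2 RPKM in spleen and 72.8 in LI, while Krt8, Krt18, Krt19, Krt20 and Cdh1 had none. The B cell genes Cd79a, Cd79b and Pax5 held peaks with 60.2 RPKM in spleen and 53.4 in LI. Of 6 myeloid genes 1 held a peak, with 14.7 RPKM in spleen and 16.3 in LI. The part of other cells in the differences below was not tested.

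Glycolysis splits glucose into pyruvate and yields ATP and NADH. Pyruvate is then reduced to lactate, or enters the mitochondrion and is oxidised to acetyl-CoA by the pyruvate dehydrogenase complex, which pyruvate dehydrogenase kinases switch off. The pentose phosphate pathway leaves glycolysis at glucose 6-phosphate and makes NADPH and ribose for nucleotides. Activated T cells are known for high glycolysis, and Treg cells for a greater reliance on mitochondrial oxidation. H3K36me3 is written by Setd2, which travels with elongating RNA polymerase II, so the mark lies over the bodies of transcribed genes and is scarce at their starts.

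The sequences under 3 peaks are given first, because they come from genes at both ends of the set's range of ratios. They lie outside untranslated regions in the strongest peak of Gapdh, the gene with the highest ratio of LI over spleen, and of Ldhb and Pdk1, the genes with the lowest. The Ldhb and Pdk1 stretches are the centres of their peaks, and the Gapdh stretch is 1 edge of its peak (chr6:125165031-125165584). The Gapdh stretch is chr6:125165031-125165154 (minus strand), the Ldhb stretch chr6:142497860-142498099 (minus strand) and the Pdk1 stretch chr2:71892655-71892894 (plus strand), all read from GRCm38, the assembly of mm10. No base of them is coding. Capitals mark CpG dinucleotides, of which the 124 bases of Gapdh hold 11 and the 240 bases each of Ldhb and Pdk1 hold 3 and 5.
Gapdh: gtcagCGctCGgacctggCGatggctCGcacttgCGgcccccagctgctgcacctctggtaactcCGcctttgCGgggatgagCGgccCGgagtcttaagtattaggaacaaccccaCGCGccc
Ldhb: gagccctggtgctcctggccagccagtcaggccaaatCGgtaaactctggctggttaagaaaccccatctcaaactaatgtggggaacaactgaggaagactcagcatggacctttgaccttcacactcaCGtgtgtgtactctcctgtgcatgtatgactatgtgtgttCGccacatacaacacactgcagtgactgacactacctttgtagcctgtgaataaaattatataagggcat
Pdk1: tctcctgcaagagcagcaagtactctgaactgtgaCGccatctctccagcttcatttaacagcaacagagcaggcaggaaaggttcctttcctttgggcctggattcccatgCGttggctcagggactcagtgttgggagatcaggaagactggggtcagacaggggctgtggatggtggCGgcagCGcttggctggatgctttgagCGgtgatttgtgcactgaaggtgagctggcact
The GC content was 65.3% in the Gapdh stretch, 47.9% in that of Ldhb and 55.4% in that of Pdk1. The peak around the Gapdh stretch had 5.39 RPKM in spleen and 16.5 in LI, that of Ldhb 10.6 and 7.41, and that of Pdk1 19.1 and 15.3. By the log2 ratio and 95% counting interval set out below, these Ldhb (-0.53, -1.91 to 0.84) and Pdk1 (-0.36, -1.09 to 0.38) peaks differed within counting error. The Gapdh peak differed beyond it, but the Gapdh body did not (0.12, -0.11 to 0.35).

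To ask where along the pathway the tissues differ, each gene was given the sum of its peak values in each library. LI sums were multiplied by 0.969, which gives both columns the same total over all peaks. The log2 ratio of LI over spleen was then taken after adding 0.5 RPKM to both sums. Its 95% interval covers counting error only and is approximate, since reads were recovered from the steps of the values and each was taken to span 200 bp. Summed values as deposited are printed below, and ratios include the scaling.

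Among the enzymes of the set that turn glucose into pyruvate, the mark was higher in LI in 14 of 14 measured genes. Their median log2 ratio was 0.32 and their range ran from 0.10 to 1.48, the latter from 1 short peak of Gapdh. Of the other 19 genes 5 had a ratio above 0, with a median of -0.05. Outside the set, Adpgk, which also phosphorylates glucose, had a ratio of -0.17 (interval -0.42 to 0.07). Gapdhs, a Gapdh isozyme also outside it, had 0.09 (-0.32 to 0.50). Splitting the set at pyruvate was done after the values were seen, by joining the preparatory and the payoff steps of glycolysis. Over the whole set 19 of 33 genes had a ratio above 0, beside 50.7% of all protein-coding genes, and the median was 0.15 beside 0.00. The counting interval lay above 0 in 7 genes, all on the way from glucose to pyruvate (Pfkl, Pfkm, Pfkp, Aldoa, Tpi1, Gapdh and Pkm), beside 18.5% of all genes. It lay below 0 in 3 genes (Ldhb, Dld and Pdk1), all outside that way, beside 15.9% of all genes. Both shares, 7 and 3 of 33, were near or under those of all genes, so the set as a whole did not stand out. More than 1.5-fold higher in LI were 2 genes (Gapdh and Tpi1), beside 9.02% of all genes, and more than 1.5-fold higher in spleen were 2 (Ldhb and Pdk1), beside 5.57%. Past 2-fold only Gapdh was higher in LI, where 3.23% of all genes were, and 0 genes were higher in spleen, where 1.81% were.

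**Figure D1:**
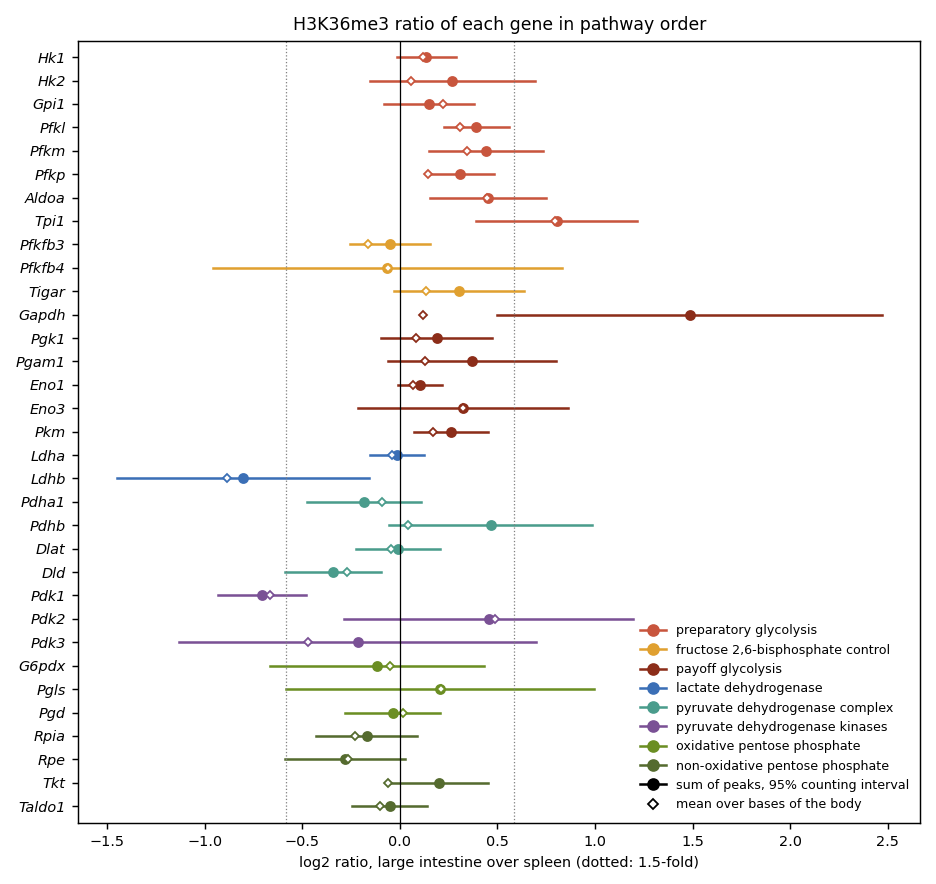
Log2 ratio of H3K36me3 in LI over spleen (x axis) for the 33 genes with a peak, in pathway order (y axis). Filled points are ratios of summed peaks with their 95% counting interval, and open diamonds are ratios of the mean over the bases of the gene body. Points from Hk1 to Tpi1 and from Gapdh to Pkm lie right of 0, from 0.10 to 1.48, while Ldhb and Pdk1 lie farthest to the left at -0.80 and -0.71.

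The preparatory steps spend ATP to turn glucose into triose phosphates. Their 8 measured genes had a median ratio of 0.35, and the interval lay above 0 in 5 of them. Hk1, the hexokinase that phosphorylates glucose in most cells, had 29 peaks summing to 355 RPKM in spleen and 403 in LI (ratio 0.14, interval -0.02 to 0.29). Hk2, the hexokinase that growth signals induce, had 69.4 RPKM in spleen and 86.4 in LI over 7 peaks (0.27, -0.15 to 0.69). Gpi1, the glucose-6-phosphate isomerase, had 53.4 and 61.2 RPKM (0.15, -0.08 to 0.38), and 1 of its 3 peaks ran over 23684 bp, the longest of the set. Summed peaks of these genes differed within counting error, whereas over the bases of the body, where long peaks weigh more, the intervals of Hk1 (0.12, 0.04 to 0.20) and Gpi1 (0.22, 0.13 to 0.31) lay above 0. Hk2 (chr6:82725025-82774454, ENSMUSG00000000628.10) was split, since its strongest peak of 335 bp went from 20.9 RPKM in spleen to 11.1 in LI and 5 of its 7 peaks were higher in LI.

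The phosphofructokinases, which commit sugar to glycolysis, differed between the tissues beyond counting error in all 3 isozymes. Pfkl (liver type, chr10:77986947-78010083, ENSMUSG00000020277.10) had 191 RPKM in spleen and 259 in LI, a ratio of 0.39 with an interval from 0.23 to 0.56, and 10 of its 12 peaks were higher in LI. Pfkm (muscle type, chr15:98092589-98132451, ENSMUSG00000033065.14) had 114 and 160 RPKM, a ratio of 0.44 with an interval from 0.15 to 0.73, and 11 of its 13 peaks were higher in LI. Pfkp (platelet type) had 243 and 311 RPKM, a ratio of 0.31 with an interval from 0.14 to 0.48, and 19 of its 24 peaks were higher in LI. Many peaks along each body therefore lay on the LI side, rather than a single one, where 49.0% of all peaks did. In each of these genes most peaks taken singly had an interval that included 0. The isozymes did not differ from each other in ratio beyond counting error. The difference was -0.05 for Pfkl minus Pfkm (interval -0.39 to 0.28) and 0.08 for Pfkl minus Pfkp (-0.15 to 0.32).

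Aldoa, the aldolase that cleaves fructose 1,6-bisphosphate (chr7:126795234-126800751, ENSMUSG00000030695.16), had 32.0 RPKM in spleen and 45.4 in LI (ratio 0.45, interval 0.16 to 0.75). Its main peak of 4449 bp over the gene went from 24.8 RPKM in spleen to 35.8 in LI, and its smaller one from 7.22 to 9.59. GENCODE M21 also lists a second entry under the symbol Aldoa, which held 0 peaks. Tpi1, the triose-phosphate isomerase (chr6:124810586-124814296, ENSMUSG00000023456.15), had 1 peak of 1895 bp with 11.1 RPKM in spleen and 20.3 in LI. Its ratio of 0.80 (0.39 to 1.22) was above that of 94.8% of all protein-coding genes. Tpi1 was the gene of the set that was over 1.5-fold higher in LI also when measured over the bases of its body (0.79, 0.37 to 1.22).

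Fructose 2,6-bisphosphate activates phosphofructokinase. By summed peaks, the 3 genes of the set that act on its level did not differ beyond counting error. Pfkfb1 and Pfkfb2 were outside the set. Pfkfb3, a kinase that makes it, had 253 RPKM in spleen and 252 in LI over 22 peaks (-0.05, -0.25 to 0.16). Pfkfb4, another such kinase, had 22.7 and 22.3 RPKM in 2 peaks (-0.06, -0.96 to 0.83). Tigar, a phosphatase that removes it (chr6:127085116-127109557, ENSMUSG00000038028.9), had 82.2 and 104.8 RPKM (0.30, -0.03 to 0.64), while its strongest peak had 17.3 and 16.8. Over the bases of the body Pfkfb3 was lower in LI (-0.16, -0.27 to -0.05), whereas by summed peaks its interval included 0.

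The payoff steps turn triose phosphate into pyruvate and yield ATP, and their 6 genes had a median ratio of 0.29. Gapdh, the dehydrogenase that makes NADH (chr6:125161715-125166467, ENSMUSG00000057666.18), had the highest ratio of the set, 1.48 with an interval from 0.50 to 2.47. This value rests on 1 peak of 554 bp near its start, with the midpoint 1159 bp in. It leaves out most of the mark on the gene. A peak of 6488 bp covers 67.8% of the Gapdh body, but its midpoint lies beyond the 3' end, in Iffo1. That peak had 26.3 RPKM in spleen and 28.5 in LI (0.07, interval -0.10 to 0.23). Taken over all bases of the body, Gapdh had a ratio of 0.12 (-0.11 to 0.35). So the 2.80-fold difference held for the short 5' peak and not for the gene body. In 3 more genes (Pfkp, Pgam1 and Taldo1) a peak overlapped the body with its midpoint outside, but covered at most 3.31% of it.

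The other payoff genes differed less. Pgk1, the X-linked phosphoglycerate kinase, had 65.2 RPKM in spleen and 76.8 in LI (0.19, -0.10 to 0.47). Pgam1, the phosphoglycerate mutase, had 26.4 and 35.4 RPKM (0.37, -0.06 to 0.80), and the enolases followed with 32.0 and 35.5 RPKM for Eno1 (0.10, -0.01 to 0.22) and 20.3 and 26.3 RPKM for the muscle isozyme Eno3 (0.32, -0.22 to 0.86). Pkm, the pyruvate kinase of the last step (chr9:59656368-59679375), had 109.9 RPKM in spleen and 136 in LI. Its ratio of 0.26 had an interval from 0.07 to 0.45, and 6 of its 7 peaks were higher in LI. Its longest peak, of 7406 bp in the 3' part, went from 31.7 to 36.8 RPKM (0.16, 0.03 to 0.30). Among the payoff genes Gapdh and Pkm alone had intervals above 0, and over the bases of the body Pkm alone did (0.17, 0.06 to 0.27).

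**Figure D2:**
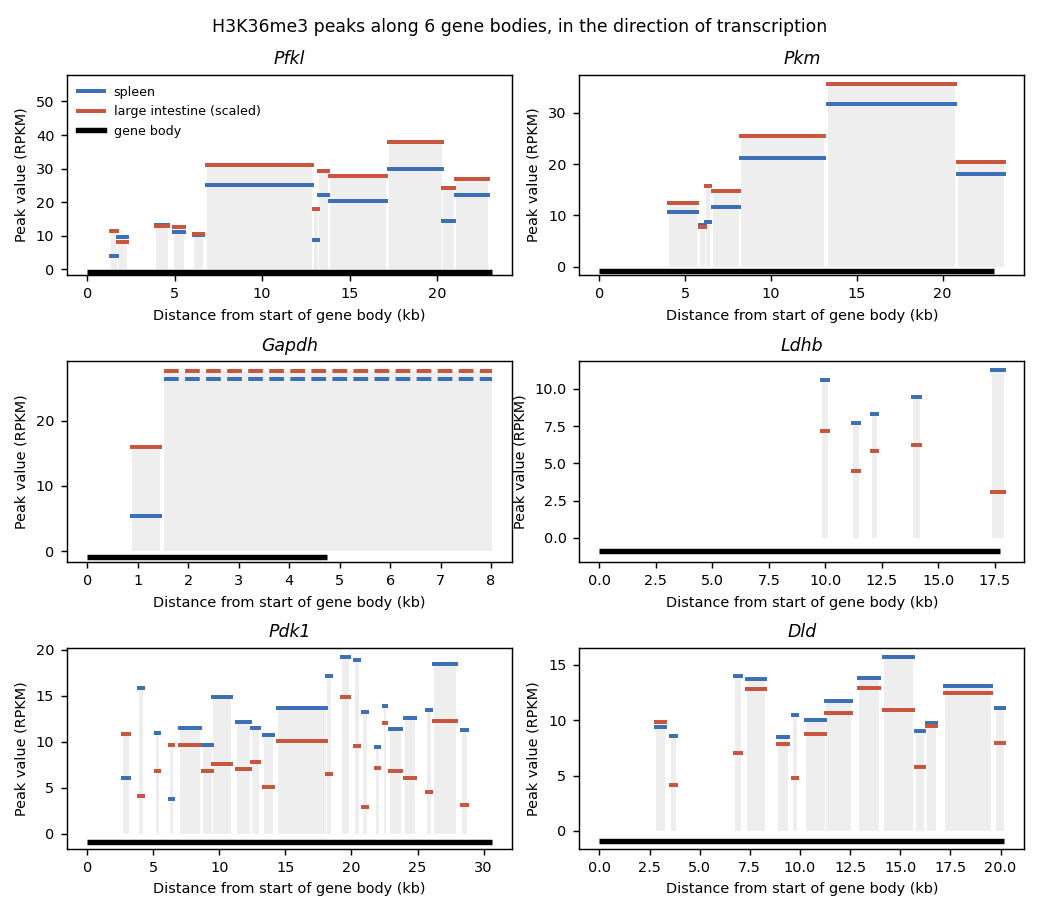
Peaks along 6 genes of the set: the x axis is the distance from the start of the gene body in kb, and the y axis the peak value in RPKM (LI scaled by 0.969). Blue and red lines span each peak at its value in spleen and LI, black bars are gene bodies, and dashed lines mark the Gapdh peak whose midpoint lies outside the gene. Red lies above blue in 10 of 12 peaks of Pfkl and 6 of 7 of Pkm, and below it in 5 of 5 of Ldhb, 20 of 22 of Pdk1 and 13 of 14 of Dld.

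At the fate of pyruvate the genes were mixed. By summed peaks the interval lay below 0 in Ldhb, Dld and Pdk1 and included 0 in the others. Lactate dehydrogenase joins 2 kinds of subunit, of which the A subunit (Ldha) is known for turning pyruvate into lactate and the B subunit (Ldhb) for the reverse. Ldha had 51.4 RPKM in spleen and 52.6 in LI, a ratio of -0.01 with an interval from -0.15 to 0.13. Ldhb (chr6:142490249-142507957, ENSMUSG00000030246.11) had 47.3 and 27.8 RPKM, a ratio of -0.80 with an interval from -1.45 to -0.16. Ldhb was 1.75-fold higher in spleen, the lowest ratio of the set, below all but 2.85% of protein-coding genes. All 5 of its peaks, of 242 to 535 bp, were lower in LI. The largest drop was in the peak over its untranslated region at the far end of the gene, from 11.2 to 3.16 RPKM (-1.72, -3.02 to -0.42). Intervals of the 4 other Ldhb peaks included 0. The difference in ratio of Ldha minus Ldhb was 0.79 (interval 0.13 to 1.45), so these subunits differed from each other beyond counting error. Per base of body Ldha carried 20.1 times the level of Ldhb in spleen and 36.1 times in LI, so Ldha was by far the more strongly marked gene in both tissues.

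The pyruvate dehydrogenase complex had 1 of 4 genes above 0. Pdha1, the X-linked E1 alpha subunit, had 67.2 RPKM in spleen and 61.0 in LI (-0.18, -0.48 to 0.11). Pdhb, the E1 beta subunit (chr14:8165996-8173025, ENSMUSG00000021748.9), had 22.3 and 31.9 RPKM (0.47, -0.05 to 0.99). This rested on a short peak near its start, which went from 5.36 to 13.9 RPKM, whereas the 5398-bp peak over most of the gene went from 16.9 to 18.05, and over the bases of the body the ratio was 0.04. Dlat, the E2 acetyltransferase, had 173 and 178 RPKM (-0.01, -0.22 to 0.21). Dld, the E3 dihydrolipoamide dehydrogenase (chr12:31331277-31351453, ENSMUSG00000020664.10), had 159 and 129 RPKM, a ratio of -0.34 with an interval from -0.59 to -0.10. In Dld 13 of 14 peaks were lower in LI, though most of them taken singly had an interval that included 0. Dld was also the gene of the set with the lowest GC content in its peaks, 41.4%. Corrected for GC its ratio was -0.12, smaller in size than the counting standard error of its uncorrected ratio, 0.125.

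Pdk1, a kinase that phosphorylates and switches off pyruvate dehydrogenase (chr2:71873224-71903858, ENSMUSG00000006494.11), had 279 RPKM in spleen and 177 in LI. Its ratio was -0.71 (-0.93 to -0.48), so it was 1.63-fold higher in spleen, and of the 3 genes with an interval below 0 its interval lay farthest from 0. Of its 22 peaks 20 were lower in LI, all along the 30635-bp body. The longest, of 3609 bp, went from 13.6 to 10.4 RPKM (-0.42, -0.76 to -0.09), and the 1650-bp peak over an untranslated region from 18.4 to 12.7 (-0.57). The ratio over the bases of the body was -0.66 (-0.83 to -0.50). Pdk2, a second kinase (chr11:95026258-95041354, ENSMUSG00000038967.13), had 26.9 and 38.2 RPKM (0.46, -0.29 to 1.20) in 3 short peaks, and Pdk3, a kinase gene on X (chrX:93764607-93832201, ENSMUSG00000035232.8), had 25.5 and 22.6 RPKM (-0.22, -1.13 to 0.70), also in 3 peaks. The difference of Pdk1 minus Pdk2 was -1.16 (-1.94 to -0.39) and that of Pdk1 minus Pdk3 -0.49 (-1.43 to 0.45). Pdk1 had the highest level per base of the kinases in both tissues, 14.2 times that of Pdk2 in spleen and 6.39 times in LI.

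The pentose phosphate genes did not differ beyond counting error in any of 7. In the oxidative branch, which makes NADPH, G6pdx, the X-linked glucose-6-phosphate dehydrogenase, had 35.6 RPKM in spleen and 33.8 in LI (-0.12, -0.67 to 0.43). All 4 of its peaks lie also inside Ikbkg, which overlaps it, so they cannot be given to either gene alone. Pgls, the lactonase, had 21.6 and 25.7 RPKM (0.21, -0.58 to 1.00), and Pgd, the 6-phosphogluconate dehydrogenase, 97.4 and 97.9 (-0.04, -0.28 to 0.21). In the non-oxidative branch, which makes and recycles ribose phosphate, Rpia, the ribose-phosphate isomerase, had 142 and 130.4 RPKM (-0.17, -0.43 to 0.09). Rpe, the ribulose-phosphate epimerase (chr1:66700831-66719805, ENSMUSG00000026005.15), had 128 and 108.9 RPKM (-0.28, -0.59 to 0.03). Of its 13 peaks 9 were lower and 4 higher in LI, among the latter its strongest, which went from 8.10 to 18.2 RPKM (1.08, 0.21 to 1.94). Tkt, the transketolase (chr14:30548359-30574720, ENSMUSG00000021957.7), had 62.1 and 73.8 RPKM (0.20, -0.05 to 0.45). Its 9965-bp peak went from 23.7 to 23.9 RPKM, and over the bases of the body its ratio was -0.06. Taldo1, the transaldolase, had 60.0 and 59.8 RPKM (-0.05, -0.24 to 0.14). Over the bases of the body the intervals of Rpia (-0.23, -0.44 to -0.02) and Rpe (-0.27, -0.53 to -0.003) lay just below 0. By this measure 8 of the 33 genes of the set had an interval above 0, beside 19.5% of all genes, and 6 below, beside 21.8%. The X-linked genes sit in a chromosome whose 212 tested genes had a median ratio of -0.16.

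Levels were compared between genes per base of gene body, with bases outside peaks counted as 0. Of the 33 genes 19 stood above the median protein-coding gene in each tissue, which had 4.95 RPKM per base in spleen and 5.04 in LI. Eno1 had the highest level of the set in spleen, 22.2 RPKM per base, with 23.9 in LI. Gpi1 followed with 20.2 and 24.2, Gapdh with 18.5 and 20.6, Pkm with 18.03 and 20.8, and Pfkl with 17.1 and 21.7. These neighbours in the order had no replicate spread to set their differences against. Ldha (16.1 in both tissues), Aldoa (15.8 and 22.1) and Pgd (15.4 and 16.0) came next. At the other end were Pdk3 (0.09 and 0.07), Pfkfb4 (0.14 in both), Pdk2 (0.50 and 0.71), Hk2 (0.58 and 0.62), Pgls (0.77 and 0.92) and Ldhb (0.80 and 0.45). Within these isozyme families 1 gene had the highest level per base, although Pfkp, with the longer body, had a larger sum of peaks than Pfkl. Hk1 had 10.2 times the level of Hk2 in spleen, Pfkl 6.79 times that of Pfkm and 2.53 times that of Pfkp, and Eno1 8.34 times that of Eno3. The order within these families was the same in LI. The median over the set was 6.24 RPKM per base in spleen and 6.62 in LI, with 51.1% of the body under peaks, beside 39.2% over all tested genes.

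**Figure D3:**
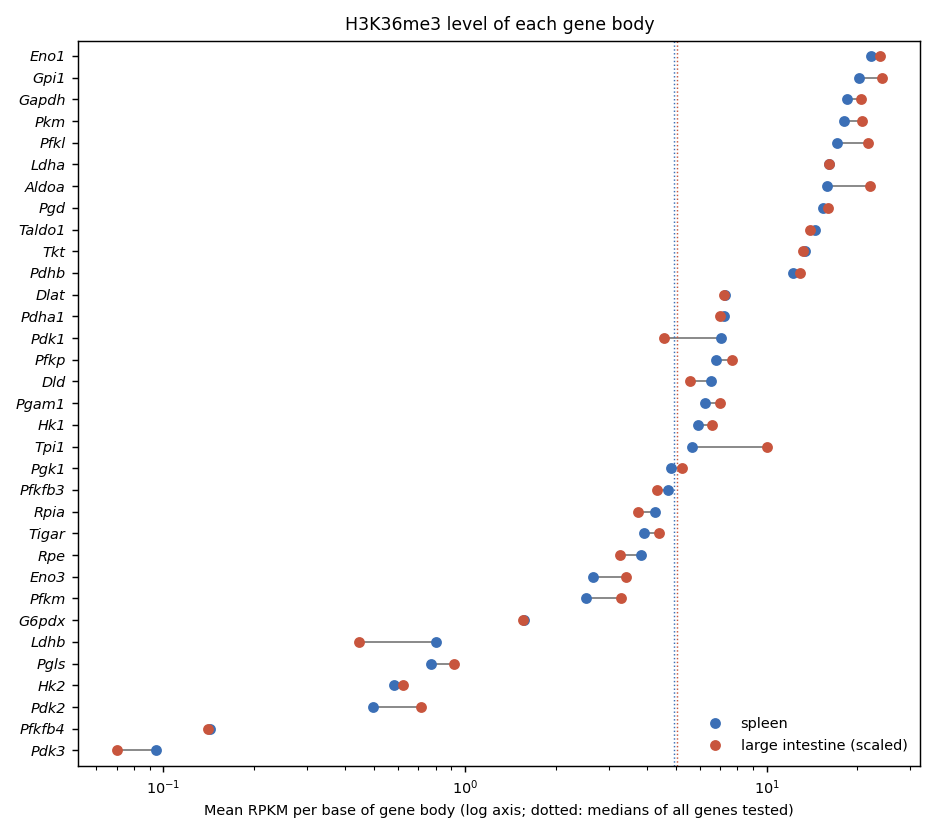
Mean H3K36me3 level per base of gene body (x axis, RPKM, log axis) for the 33 genes (y axis), ordered by the level in spleen. Blue points are spleen, red points LI scaled by 0.969, and dotted lines the medians of all tested genes (4.95 and 5.04). Eno1 is at the top with 22.2 and 23.9, Pdk3 at the bottom with 0.09 and 0.07, and Pdk1 and Ldhb show wide gaps with red left of blue.

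Most of the mark lay toward the 3' end of these genes. Each body was cut into 3 equal parts in the direction of transcription. The last part held a median of 51.8% of a gene's signal in spleen and 53.8% in LI, and the first part 3.83% and 3.60%. Over all tested genes the last part held 50.2% and 50.9%, and the first 8.13% and 8.02%. Hk2 and G6pdx had all of their signal in the last part, and Hk1 86.6% in spleen and 87.8% in LI. Pdk2 and Pgls had all of theirs in the first. Peak midpoints lay in introns in 206 of 261 cases (78.9%), in coding exons in 24, in untranslated regions in 14 and in other exons in 17. None of the 33 genes had a peak over the outermost annotated start.

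Since a start can also lie inside a gene body, the promoters in RefSeq (GRCm38.p6) were scanned. The window ran from 250 bases before a start to 50 after it, and all 34 genes matched, with 49 windows. A peak lay over the window in Ldha and Aldoa only. The 250 bases before these starts are shown, chr7:46846832-46847081 (plus strand) for Ldha and chr7:126799255-126799504 (minus strand) for Aldoa, with the core of the hypoxia response element (ACGTG or GCGTG, on either strand) in capitals.
Ldha: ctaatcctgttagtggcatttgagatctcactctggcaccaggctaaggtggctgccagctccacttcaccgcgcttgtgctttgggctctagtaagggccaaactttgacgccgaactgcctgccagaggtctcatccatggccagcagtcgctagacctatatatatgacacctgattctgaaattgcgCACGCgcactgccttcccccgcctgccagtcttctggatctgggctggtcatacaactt
Aldoa: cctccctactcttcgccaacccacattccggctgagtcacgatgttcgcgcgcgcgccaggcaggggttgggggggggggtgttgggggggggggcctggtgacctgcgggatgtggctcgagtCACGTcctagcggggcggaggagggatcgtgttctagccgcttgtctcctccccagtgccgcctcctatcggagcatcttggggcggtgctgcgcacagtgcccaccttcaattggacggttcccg
The peak over the Ldha window had 25.6 RPKM in spleen and 24.5 in LI, and that over the Aldoa window 7.22 and 9.59. All 250 printed bases of Ldha lay under the peak, but only 17 of those of Aldoa, at the end nearest the start and without the capitalised core. Another Aldoa window, chr7:126799129-126799428, had 93 of its 250 bases before the start under the same peak. The midpoint of the Aldoa peak lies also inside Fam57b, an overlapping coding gene. The hypoxia core was found in a promoter of 28 of the 34 genes (82.4%), beside 69.2% of the genes with a tested value and 46.7% of all genes in the table. A gene with more windows has more places for a match. Counted per window, the shares were 73.5%, 63.2% and 43.8%. The Myc and USF motif CACGTG, the E-box, was found in 4 (11.8%), beside 12.3% and 8.09%. CACGTG contains a hypoxia core by its letters, so these counts overlap. The promoter windows had a median GC content of 60.7% in the set and 61.0% in the genes with a tested value, and a match is only a match of letters.

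The ratio of LI over spleen moved with the base composition of the peaks. Over all tested genes, in 20 bins of GC content, the median ratio went from -0.27 in the bin at 39.7% GC to 0.34 in the bin at 59.3%. Over the 33 genes Pearson's r was 0.64 and Spearman's rho 0.53, a description across genes that share both libraries. Peaks of the enzymes from glucose to pyruvate had a median GC content of 51.8%, and those of the other genes 49.1%. With the trend over all genes taken off, the ratio was above 0 in 14 of 14 enzymes of the set from glucose to pyruvate (median 0.25). Among these, Eno1 (0.02), Hk1 (0.03), Gpi1 (0.06) and Hk2 (0.07) were left close to 0. Of the 19 others 5 were above 0 (median -0.11). The whole set then had a median of 0.05. Tpi1 stood at 0.64, Pfkl at 0.20, Pdk1 at -0.61 and Ldhb at -0.86 after the correction. Gapdh, whose 5' peak has 64.4% GC, more than the median of any bin, stood at 1.14.

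**Figure D4:**
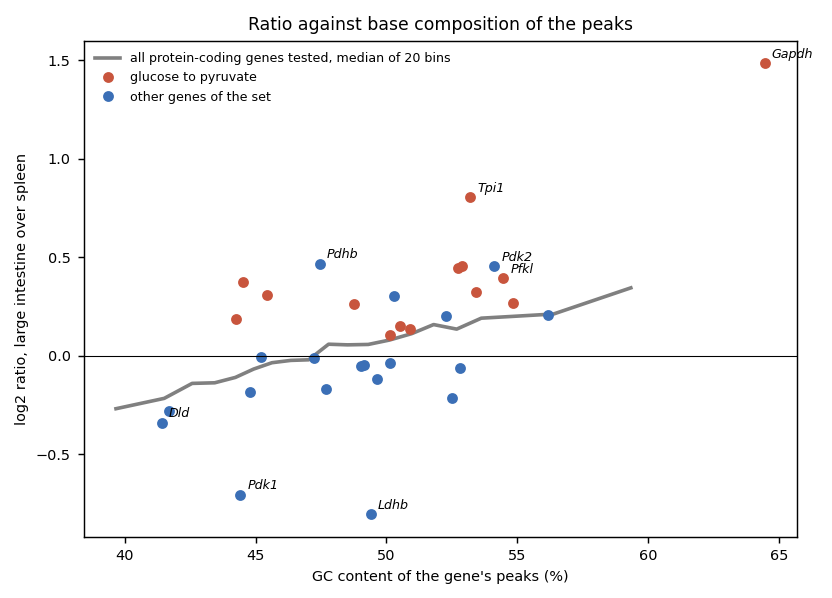
Log2 ratio of LI over spleen (y axis) against the GC content of a gene's peaks in percent (x axis) for the 33 genes. The grey line joins the medians of 20 bins of all tested genes, from -0.27 at 39.7% to 0.34 at 59.3%. Red points are the enzymes from glucose to pyruvate and blue points the other genes of the set, with Pdk1 and Ldhb far below the line.

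The split at pyruvate was followed through 14 other ways of processing. All of them use the same 2 libraries from which the split was drawn, so they give no independent support. Several could not turn a sign, since another pseudocount or filter changes none. Other scalings of whole columns moved ratios by at most 0.05, below the lowest ratio of these enzymes, 0.10. In 13 of the 14 ways every measured enzyme of the set from glucose to pyruvate had a ratio above 0. Fewer than 14 were measured in 4 of these ways. The strongest peak of each gene gave 12 of 14, without Hk2 and Eno3. The lowest median of these enzymes was 0.16, over the bases of the body, where 14 of 14 were above 0 and the interval lay above 0 in 8. The other genes of the set had from 0 of 6 above 0, among genes with at least 200 RPKM, to 11 of 19, by the strongest peak.

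**Figure D5:**
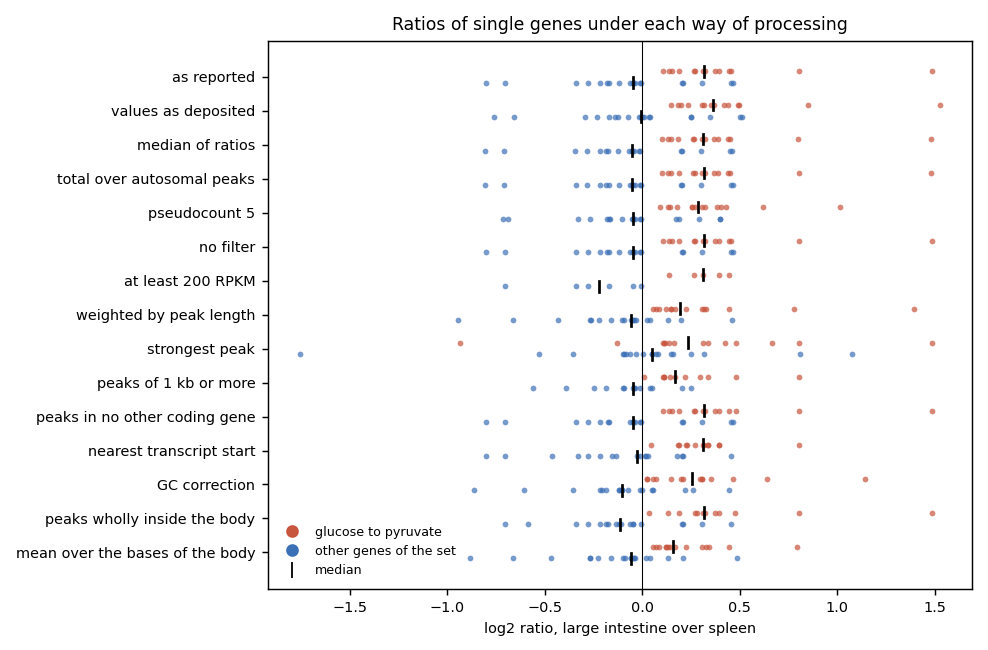
Log2 ratios of LI over spleen (x axis) of single genes under each way of processing (y axis). Red points are the enzymes from glucose to pyruvate, blue points the other genes of the set, and black bars their medians. As reported, the medians are 0.32 and -0.05, and over the bases of the body 0.16 and -0.06.

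Other genes of sugar metabolism were listed beside the set, 42 in all, of which 25 held peaks and 24 were tested. Of these 14 had a ratio above 0, beside 50.7% of all protein-coding genes, and the median was 0.06. The interval lay above 0 in 6, beside 18.5% of all genes, and below 0 in 2, beside 15.9%. More than 1.5-fold higher in LI, where 9.02% of all genes were, was Mpc2, a subunit of the mitochondrial pyruvate carrier. It had 8.44 RPKM in spleen and 18.4 in LI (1.04, interval -0.07 to 2.15), from 2 peaks, with 2.32% of its body under peaks. More than 1.5-fold higher in spleen, where 5.57% of all genes were, was Prps1, the X-linked enzyme that activates ribose phosphate for nucleotide synthesis. It had 66.5 and 39.1 RPKM (-0.80, -1.33 to -0.28). Slc2a1, the glucose transporter Glut1 (named after its value was seen), had 137 RPKM in spleen and 203 in LI (0.52, 0.30 to 0.75). The other genes with an interval above 0 were Slc2a3, Slc16a3, H6pd, Rbks and Galm. Besides Prps1, the interval lay below 0 in Minpp1, with 192 RPKM in spleen and 144 in LI (-0.46, -0.75 to -0.17). Over the bases of the body the interval lay above 0 in 6 of the 24 genes, beside 19.5% of all genes. By that measure it lay below 0 in 5, beside 21.8%, among them Adpgk (-0.25, -0.41 to -0.08).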

How the data were processed

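H3K36me3 ChIP-seq was compared between 1 spleen and 1 LI library of pooled Treg cells. The deposited values are RPKM: the authors aligned single-end 75-nt reads to mm10 (the submitters' processing notes name Bowtie2, with no role given), called peaks per tissue with MACS2 against input, merged the peaks of both tissues (bedtools) and averaged RPKM coverage over each merged peak. The table's name calls them raw counts, but they are not whole numbers, so no count model was used. Values times peak length were whole multiples of 1.69 in spleen and 1.31 in LI (within 0.05 of a multiple) for 100% of the 83663 spleen and 74570 LI values above 0 and below 5000 multiples, of 120910 peaks, which gave the depth and, at 200 bp per read, the counting intervals.

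Peaks went to every GENCODE M21 protein-coding gene whose body held their midpoint. Chromosome lengths were checked against GRCm38 (21 chromosomes, 0 peaks past the end). The filter was 20 RPKM over both libraries and the pseudocount 0.5 RPKM, and calls are folds or intervals, with no significance test. Full detail went to the 5 highest and 5 lowest ratios, to genes past 1.5-fold and to genes whose sign turned beyond their interval under an alternative. Other pathway genes past 1.5-fold were named. The genes and lists were chosen with earlier results of these data known. The alternatives were 12 planned ones and 2 added after the data were seen. Scripts, tested on simulated data, used Python 3.11.15, pandas 2.3.3 and numpy 2.4.6. Part of 1 marker list is not reported here.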

Additional observations from a re-analysis of the deposited data

How the results depend on the processing

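No paired analysis was possible because each tissue had 1 library. Of 208 values of the set and its role groups under the 14 alternatives, 190 stayed close to the value reported and 18 moved, and of 425 values of single genes 411 stayed within the counting interval and 14 moved. The sign differed from that reported in 27 of the 425 values and in 12 of 138 medians, but in no gene past 1.5-fold and no gene with an interval excluding 0. The number over 1.5-fold higher in LI was 0 with at least 200 RPKM, 5 by the strongest peak, and 1 each with peaks of 1 kb or more, the nearest transcript start and the bases of the body. The number over 1.5-fold higher in spleen was 1 with at least 200 RPKM and 0 with peaks of 1 kb or more. The number over 2-fold higher in LI was 0 with at least 200 RPKM, peaks of 1 kb or more, the nearest transcript start and the bases of the body, and 2 by the strongest peak, which also put 1 gene over 2-fold higher in spleen. With at least 200 RPKM, 5 of 11 genes were higher in LI, where fewer genes were tested. The median of the fructose 2,6-bisphosphate genes was -0.073 with peaks of 1 kb or more, -0.22 by the nearest transcript start and -0.10 after GC correction, and that of the oxidative pentose phosphate genes 0.23 with peaks of 1 kb or more. Except where fewer genes were tested, the cause was not tested. The sign held in 19 of 33 genes under each alternative that gave them a value (for Aldoa 11, Ldhb 12 and Tpi1 13 of the 14), among them Tpi1, Pfkl, Pfkm, Pfkp, Aldoa, Pkm, Ldhb, Dld and Pdk1. Without scaling, Ldha, Dlat and Pgd turned to above 0, and the median of all genes went from 0.00 to 0.05. With 1 library a tissue, differences between mice or between immunoprecipitations could not be measured, and 14 genes rest on 1 to 3 peaks.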
